A study of Mus musculus with 2 samples.

Results

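Mouse genes for transporters of neurotransmitters, amino acids and chloride were examined for open chromatin in the hippocampus. They were the protein-coding genes of the GENCODE M21 annotation whose symbols start with Slc1a, Slc6a, Slc7a, Slc12a, Slc17a, Slc18a or Slc38a and a digit, with the astrocytic glutamate transporters Slc1a2 and Slc1a3 left out. The rule gave 74 of 21911 protein-coding genes and used no measured value. One of the 74, Slc7a6os, carries its name for its position opposite Slc7a6 and is not itself known as a transporter. The data were DNase-seq, in which DNase I cuts accessible DNA and the cut ends are sequenced. The tissue was hippocampus from males of the B6CASTF1/J strain at 14 days of age, which are first-generation offspring of C57BL/6 and CAST/EiJ parents, and the labels call it a layer without naming which. There was 1 group of 2 biological replicates, with 3 males named in each label, and both replicates carry 1 donor identifier, so the spread between them may be technical. No second condition was measured, and the comparisons below are between the transporters and all protein-coding genes of the same libraries.

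Transporters of the Slc6a family and the glutamate transporters of Slc1a clear transmitters from the synaptic cleft with the help of the sodium gradient. Those of Slc17a6 to Slc17a9 and Slc18a load glutamate, monoamines, acetylcholine or nucleotides into vesicles. The Slc12a family includes cotransporters that carry chloride with sodium or potassium. Among them Slc12a2 and Slc12a5 help set whether GABA depolarises or hyperpolarises a neuron, a balance that shifts in rodents during the first weeks after birth. The Slc7a and Slc38a families exchange and import cationic, neutral and branched amino acids, among them the glutamine that neurons turn back into glutamate and GABA.

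Replicate 1 had 115072 peaks and replicate 2 had 95711. Each peak carries a value that the authors deposited without a unit. The read depth is not given, so no counting error can be attached to a value. The median over all peaks was 0.594 in replicate 1 and 0.734 in replicate 2. The promoter window of a gene reached 1000 bp to each side of every annotated start, and a gene's promoter value was that of its highest peak there. All 6 neuronal, 3 astrocyte, 3 oligodendrocyte lineage, 2 microglia and 2 GABAergic marker genes had promoter peaks in both libraries, as did 1 of 4 markers of other brain regions (Hoxb4, at 0.431 and 0.791) and 2 of 5 of other tissues (Lrp2 at 0.601 and 0.717, and Alb at 0.156 and 0.220). Some transporter promoters counted as open below had values in this range, among them Slc6a4, Slc7a11 and Slc12a7. In whole tissue, fewer cells of a type and less open chromatin per cell cannot be told apart.

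Some of the regions behind the results are shown here as sequence, on the plus strand of mm10 (GRCm38) from the RefSeq copy of that genome, each within 100 bp of the centre of its peak in replicate 1 unless stated. Capitals mark bases that lay in footprints of both replicates, footprints being short stretches protected from cutting inside a peak. Bases in annotated exons were left out. The CAST/EiJ sequence was not examined, so all letters here and in the motif searches are those of the reference alone. The first set holds sites outside promoters. The Slc17a7, Slc6a5 and Slc7a11 sites and the site downstream of Slc6a17 hold the letters CCANNAG followed by any 2 bases and GG, a form of the core bound by CTCF, the site in an intron of Slc6a17 holds the E-box CAGATGG, and the Slc12a5 intron holds the Rfx letters GTTGCCATG.
Slc17a7, 1.66 kb upstream, chr7:45162190-45162390: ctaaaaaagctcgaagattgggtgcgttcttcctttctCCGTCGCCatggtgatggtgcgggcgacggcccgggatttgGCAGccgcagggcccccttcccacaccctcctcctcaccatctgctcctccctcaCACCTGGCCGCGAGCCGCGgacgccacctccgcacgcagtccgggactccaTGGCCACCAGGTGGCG
Slc6a5 intron, chr7:49923510-49923710: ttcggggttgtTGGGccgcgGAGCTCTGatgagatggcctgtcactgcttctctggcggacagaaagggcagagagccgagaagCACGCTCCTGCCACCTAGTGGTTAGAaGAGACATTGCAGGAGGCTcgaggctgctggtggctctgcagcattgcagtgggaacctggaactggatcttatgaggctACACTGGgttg
Slc7a11 intron, chr3:50381620-50381820: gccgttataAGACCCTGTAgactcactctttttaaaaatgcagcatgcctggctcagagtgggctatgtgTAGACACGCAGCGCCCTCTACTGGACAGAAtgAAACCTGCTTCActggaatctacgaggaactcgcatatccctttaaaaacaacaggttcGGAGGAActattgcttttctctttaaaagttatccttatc
Slc6a17 downstream, chr3:107466680-107466880: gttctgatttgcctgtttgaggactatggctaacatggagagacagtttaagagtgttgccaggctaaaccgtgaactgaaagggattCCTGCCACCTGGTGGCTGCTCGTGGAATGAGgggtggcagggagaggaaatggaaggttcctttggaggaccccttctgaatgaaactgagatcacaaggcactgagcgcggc
Slc6a17 intron, chr3:107491580-107491780: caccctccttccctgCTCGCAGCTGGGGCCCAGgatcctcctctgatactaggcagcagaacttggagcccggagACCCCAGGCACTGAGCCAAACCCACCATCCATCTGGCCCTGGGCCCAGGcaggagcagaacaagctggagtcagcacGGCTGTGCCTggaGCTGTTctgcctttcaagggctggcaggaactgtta
Slc12a5 intron, chr2:164964660-164964860: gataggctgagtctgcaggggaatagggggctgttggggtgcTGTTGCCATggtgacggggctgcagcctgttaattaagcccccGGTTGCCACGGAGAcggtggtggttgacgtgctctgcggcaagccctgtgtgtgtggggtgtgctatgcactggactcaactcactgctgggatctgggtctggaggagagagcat

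The second set holds promoter sequence of genes in which motif letters and footprints of both replicates met, and the site of Slc6a9 that fell on the edge of the promoter window. Slc18a1 holds the Nrf1 letters GCATGCGC, Slc38a9 the E-box CAGATGG, Slc38a2 and Slc7a5 the Sp letters GGGGCGGGG, and a second stretch of Slc38a2 the composite Cebp-Atf4 letters TGATGNAAT.
Slc18a1, gene on the minus strand, chr8:69088570-69088645: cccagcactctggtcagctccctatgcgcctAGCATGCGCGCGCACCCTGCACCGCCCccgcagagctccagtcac
Slc38a9, gene on the plus strand, chr13:112660660-112660750: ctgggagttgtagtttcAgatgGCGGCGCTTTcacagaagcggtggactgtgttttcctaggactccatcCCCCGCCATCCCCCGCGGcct
Slc7a5, gene on the minus strand, chr8:121907695-121907810: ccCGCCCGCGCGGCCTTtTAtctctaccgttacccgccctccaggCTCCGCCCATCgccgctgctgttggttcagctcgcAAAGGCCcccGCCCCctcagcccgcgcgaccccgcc
Slc38a2, gene on the minus strand, chr15:96698920-96699120: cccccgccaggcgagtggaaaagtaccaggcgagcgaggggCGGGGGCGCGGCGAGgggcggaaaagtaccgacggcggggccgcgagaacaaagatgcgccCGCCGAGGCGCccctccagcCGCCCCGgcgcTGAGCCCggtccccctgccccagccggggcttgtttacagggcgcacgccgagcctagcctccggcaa
Slc38a2, 81 bp around the composite element, chr15:96699141-96699221: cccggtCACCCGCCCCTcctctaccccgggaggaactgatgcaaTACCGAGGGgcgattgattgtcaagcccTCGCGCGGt
Slc6a9 edge site, chr4:117836470-117836670 (centred on the peak of replicate 2): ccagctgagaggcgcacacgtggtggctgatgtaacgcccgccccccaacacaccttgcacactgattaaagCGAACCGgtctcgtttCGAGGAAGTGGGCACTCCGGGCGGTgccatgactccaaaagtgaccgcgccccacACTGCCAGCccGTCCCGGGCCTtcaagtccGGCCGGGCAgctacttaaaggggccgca

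Promoters of 46 of the 74 transporter genes had a peak in both replicates, which is 62.2%, against 64.3% of all protein-coding genes. A peak in 1 replicate only was found at 4 transporter genes, or 5.41%, against 3.56% of all genes, and in neither replicate at 24, or 32.4%, against 32.1%. The share of open promoters was thus near that of the whole annotation. The peaks that were present were low. Over the 46 genes the median promoter value was 1.38 in replicate 1 and 1.74 in replicate 2, against 2.54 and 3.19 over the 14097 coding genes with a peak in both. The median of the 2-replicate mean was 1.63 for the transporter genes and 2.86 for all genes, and 13 of the 46 lay above the median of all genes. Slc38a10 was the only one among the highest 10% of all genes. No test was made of these differences, since a list of genes gives no replicates.

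The replicates ranked the transporter promoters alike, with a Spearman's rho of 0.930 across the 46 genes and 0.980 across all genes with a peak in both (a description across genes of 2 libraries). Values were higher in replicate 2 for 42 of the 46, and for 92.3% of all genes. The median ratio of replicate 2 to replicate 1 was 1.26 for the transporters and 1.25 for all genes, so the shift was that of the whole library. Outside the central 95% of ratios over all genes (0.884 to 1.65) were Slc7a11 at 0.731, Slc7a8 at 1.94 and Slc6a9 at 3.81. The highest promoter peaks of the 2 replicates overlapped for 42 of the 46 genes, and for Slc12a7, Slc6a4, Slc6a8 and Slc6a9 they were different peaks. This overlap was not counted over all coding genes, so it describes the transporters only.

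**Figure D1:**
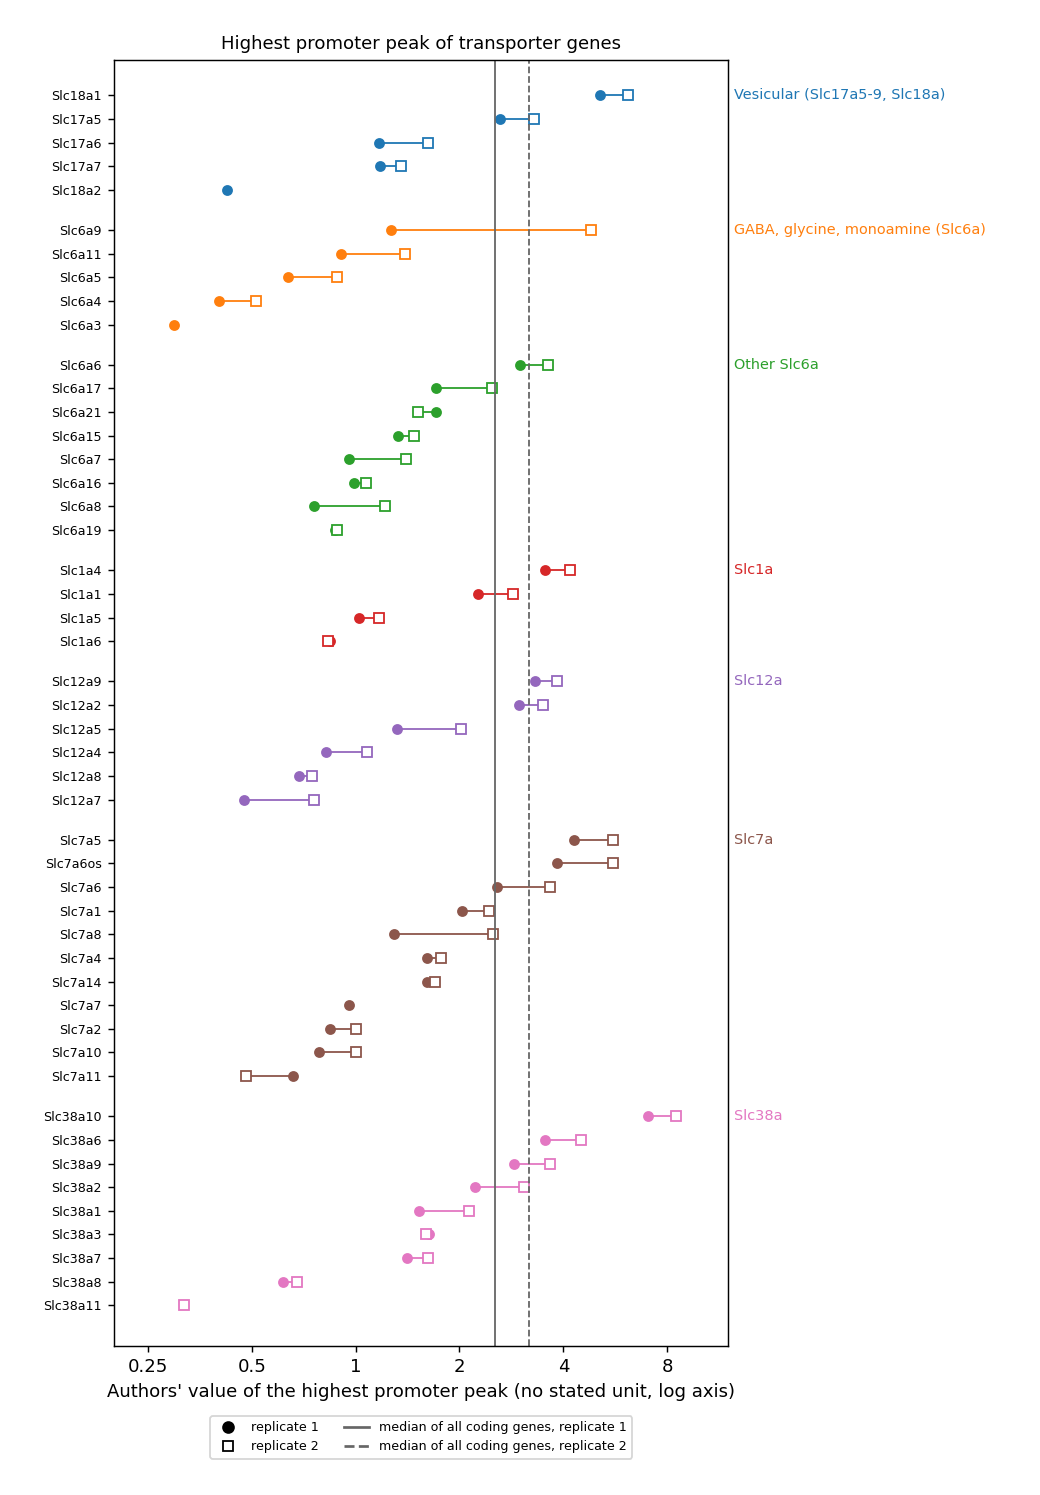
Authors' value of the highest promoter peak (log axis, no stated unit) of 48 of the 50 transporter genes with a promoter peak in at least 1 replicate, the others not being shown, by family or role; filled circles are replicate 1, open squares replicate 2, and the vertical lines the medians of all coding genes with a peak in both (2.54 and 3.19). Slc38a10 and Slc18a1 stand highest, Slc6a9 has the widest gap between replicates, and most genes lie left of the lines.

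Among the vesicular transporters, with the lysosomal Slc17a5 grouped with them, 4 of 8 genes were open at the promoter in both replicates. Slc17a6, the vesicular glutamate transporter VGLUT2, had 1.17 in replicate 1 and 1.62 in replicate 2, and its peak lay over the annotated coding start. Slc17a7, which encodes VGLUT1, the main vesicular glutamate transporter of adult cortex and hippocampus, had 1.18 and 1.35. That peak lay about 1 kb from starts of retained-intron transcripts inside the gene. At its coding start a peak of 0.926 was listed in replicate 1 and none in replicate 2. The strongest open chromatin at Slc17a7 was outside the promoter window, 1.66 kb upstream, at 3.79 and 5.01, and 0.511% of the 47386 shared sites outside promoters were higher. Slc17a5, the lysosomal sialic acid transporter sialin, had 2.62 and 3.28 over its coding start. Slc18a1, the peripheral vesicular monoamine transporter VMAT1, had 5.10 and 6.16, but that peak also lies at a start of Atp6v1b2, a subunit of the vesicular proton pump, and 539 bp inside Slc18a1 from its nearest start. Slc18a2, the vesicular monoamine transporter of the brain, had 0.424 in replicate 1 and no peak in replicate 2. Slc17a8 (VGLUT3), Slc17a9 (a vesicular nucleotide transporter) and Slc18a3 (the vesicular acetylcholine transporter) had no promoter peak in either replicate, and neither had any of Slc17a1 to Slc17a4, which are known mainly from kidney, liver and intestine.

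Of the plasma membrane transporters for GABA, glycine and monoamines, 5 of 9 had a promoter peak in both replicates, with a median mean value of 1.15, the lowest of the role groups that had any. Slc6a11 (GAT-3, a GABA transporter mainly of astrocytes) had 0.905 and 1.39. Slc6a13 and Slc6a12, GABA and betaine transporters known from meninges, liver and kidney, had no promoter peak. Slc6a5 (GlyT2, of glycinergic neurons) had 0.636 and 0.881. Slc6a9 (GlyT1, of glia and some glutamatergic neurons) had 1.27 in replicate 1 and 4.82 in replicate 2. The larger value is a site that both replicates contain. In replicate 1 it had 3.61 and began 1063 bp from the nearest Slc6a9 start, outside the window, and in replicate 2 it began 963 bp away, inside it. With a window of 500 bp the mean of Slc6a9 was 1.61 in place of 3.04. Among the monoamine transporters Slc6a4 (serotonin) had 0.403 and 0.514, from peaks that did not overlap, Slc6a3 (dopamine) had 0.297 in replicate 1 and no peak in replicate 2, and Slc6a2 (noradrenaline) had none. For Slc6a3, stretches with a listed false discovery rate of the cut rate were present in replicate 2 as well, the lowest at 0.0411.

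The other 12 Slc6a genes had promoter peaks in both replicates in 8 cases. Slc6a6, the taurine transporter, had the highest values of the whole Slc6a family apart from replicate 2 of Slc6a9, at 3.00 and 3.60. Slc6a17, a transporter of neutral amino acids on synaptic vesicles, had 1.71 and 2.49. Slc6a8, the X-linked creatine transporter, had 0.757 and 1.22, again from different peaks, that of replicate 2 lying over the start. It was the only one of the 4 members on chromosome X with a promoter peak in both replicates. Slc6a14, Slc6a18, Slc6a20a and Slc6a20b, amino acid transporters known from epithelia, had no peak in either replicate. Slc6a19, the main neutral amino acid transporter of intestine and kidney, had 0.870 and 0.881, near a processed-transcript start inside the gene and not at a coding start.

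In the Slc1a family 4 of 5 genes were open in both replicates. Slc1a1 (EAAC1, the neuronal glutamate and cysteine transporter) had 2.26 and 2.86, and Slc1a4 (ASCT1, which exchanges serine and alanine) had 3.54 and 4.18. Slc1a6 (EAAT4, known from cerebellar Purkinje cells) had 0.841 and 0.832, with its peak centre over 500 bp upstream of the start in replicate 1. Slc1a7, the retinal glutamate transporter, had no promoter peak.

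Of the 9 genes of the cation-chloride cotransporter family, Slc12a, 7 had promoter peaks in both replicates. Slc12a2 (NKCC1, which brings chloride into cells) had 2.98 and 3.49. Slc12a5 (KCC2, the neuronal chloride extruder) had 1.32 and 2.02, and the NKCC1 promoter was the higher one in each replicate. Slc12a9 was the highest of the family at 3.32 and 3.84. Slc12a7 (KCC4) had 0.474 and 0.758 from different peaks. Slc12a1 and Slc12a3, the cotransporters of the kidney tubule, had no promoter peak, although Slc12a1 held 4 shared open sites in its introns, at 0.453 to 1.36 in replicate 1 and 0.408 to 1.26 in replicate 2.

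Slc12a5 was one of 15 transporter genes with at least 2 separate coding promoters in the basic transcript set, starts within 2000 bp of each other being taken as 1 promoter. That is 20.3% of the transporters, against 17.9% of all coding genes. At 8 of the 15, or 53.3%, only some of these promoters had a peak in both replicates, against 47.5% of the 3920 such genes in all. The first along the gene was open at all 8, and at 79.5% of the 1862 such partly open genes in all. The first of the Slc6a9 promoters was open and that 14.9 kb further in had no peak, and the same held for Slc7a14 at 52.0 kb. At Slc12a5 and Slc38a3 both promoters were open and the downstream one was higher. The first promoter of Slc12a5 had 0.969 and 1.32, and the one 7.18 kb downstream had 1.32 and 2.02. In rodents these starts give the KCC2a and KCC2b isoforms, of which the downstream KCC2b is known as the more abundant in the mature brain. The first promoter of Slc38a3 had 0.827 and 1.14, and the one 10.0 kb into the gene had 1.63 and 1.60. At 5 of the 15 genes, or 33.3%, among them Slc17a8 and Slc38a4, no coding promoter had a peak in both replicates, against 39.2% in all. DNase cuts do not say which transcripts were made.

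The Slc7a genes, which include the light chains of the heteromeric exchangers, had 10 of 16 promoters open in both replicates. Slc7a5 (LAT1, the large neutral amino acid exchanger of the blood-brain barrier and of growing cells) had 4.30 and 5.56. Slc7a6os had 3.84 and 5.56 at a start shared with Prmt7, and Slc7a6 itself had 2.57 and 3.67. Slc7a1, the widely expressed cationic transporter CAT-1, had 2.03 and 2.44. Slc7a8 (LAT2) had 1.29 in replicate 1 and 2.50 in replicate 2. Slc7a10 (Asc-1, which carries D-serine and glycine) had 0.785 and 1.00, from a peak about 1 kb upstream of its start. Slc7a11 (xCT, the cystine-glutamate exchanger) had 0.658 and 0.481 and was one of 4 genes of the 46 that were lower in replicate 2. Slc7a7, light chain of a macrophage and epithelial exchanger, had 0.955 in replicate 1 with a lowest listed false discovery rate of 5.54e-06, and no peak in replicate 2. Slc7a3, Slc7a9, Slc7a12, Slc7a13 and Slc7a15 had no promoter peak in either replicate.

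Slc38a genes had the highest median mean value of any role group, 2.24 over the 8 of 11 open in both replicates. Slc38a10 (chr11:120103960-120151346, minus strand), one of the less studied members, was the highest transporter promoter at 7.03 and 8.48. Slc38a9, the lysosomal arginine sensor of the mTORC1 pathway, had 2.87 and 3.66, and Slc38a6 had 3.55 and 4.49 at a start shared with Trmt5. The glutamine transporters Slc38a1 (SNAT1, of neurons), Slc38a2 (SNAT2, induced by amino acid shortage) and Slc38a3 (SNAT3, of astrocytes) followed, with 1.53 and 2.13 for Slc38a1, 2.22 and 3.07 for Slc38a2, and 1.63 and 1.60 for Slc38a3. Slc38a11 had 0.318 in replicate 2 alone. Slc38a4 and Slc38a5 had no promoter peak, and 1 stretch at Slc38a4 in replicate 1 was listed with a false discovery rate of 0.0445. Apart from that stretch and Slc17a9 in replicate 2 (0.0275), none of the 24 genes without a promoter peak had a listed stretch in the window.

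Promoter state followed the CpG content of the promoter, measured as the observed over expected CpG ratio in 1001 bp around the first basic start. Its median was 0.662 for transporter genes open in both replicates, 0.546 for the 4 open in 1 and 0.276 for the 24 open in neither, against 0.720, 0.342 and 0.172 for all genes. Where the ratio was 0.6 or more, 28 of 30 transporters were open, or 93.3%, against 95.2% of all genes. Between 0.4 and 0.6, 12 of 19 were open, or 63.2%, against 77.5%, and under 0.4, 6 of 25 were open, or 24.0%, against 21.6%. The exceptions with a CpG-rich promoter and no peak were Slc6a20a at 0.810 and Slc18a3 at 0.781. Slc38a3 at 0.126, Slc38a8 at 0.119, Slc6a19 at 0.258, Slc6a9 at 0.343, Slc7a11 at 0.354 and Slc12a8 at 0.362 were open at a low ratio. Of these, Slc38a8 and Slc6a19 had no peak in both replicates at a basic start. The ratio describes only the first basic start, and the highest peak can lie elsewhere. The highest peaks of Slc38a3 lay at the promoter 10.0 kb into the gene, and those of Slc6a9 nearer to later starts.

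**Figure D2:**
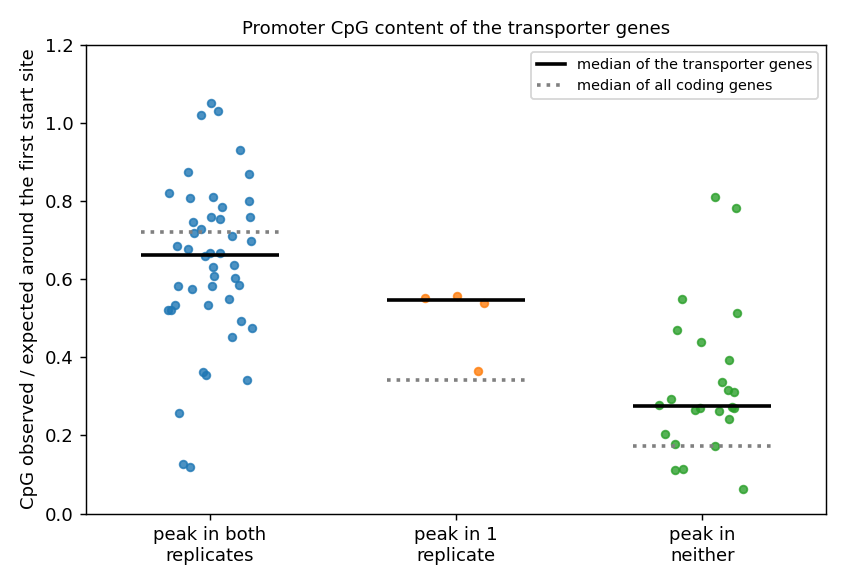
Observed over expected CpG ratio around the first basic start site of each of the 74 transporter genes, by whether its promoter had a peak in both replicates, in 1 or in neither; points are genes, black lines the medians of the transporters (0.662, 0.546 and 0.276) and dotted lines those of all coding genes (0.720, 0.342 and 0.172). The 2 green points near 0.8 are Slc6a20a and Slc18a3.

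Outside promoters, peaks were counted in the gene and 10 kb either side where they touched no promoter window of any gene, and taken as shared where a peak of the other replicate overlapped. At least 1 shared site was found at 55 of the 74 transporter genes, or 74.3%, against 53.4% of all protein-coding genes. The transporter genes were longer, with a median length of 36.1 kb against 17.4 kb, and the shared sites per 100 kb searched came to 3.07 at the transporters and 2.22 over all genes. The median number was 1.00 in both, and the mean was 2.09 at the transporters and 1.53 over all genes. Length and neighbouring genes' regulation were not separated, and whether a site acts on the transporter was not tested. The 151 different sites are peaks of replicate 1, some of which overlap, and they formed 148 separate regions. Their median mean value was 0.797, against 0.715 over all 47386 shared sites. Counted per gene, 98 lay in introns, 18 in exons, 19 upstream and 20 downstream.

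**Figure D3:**
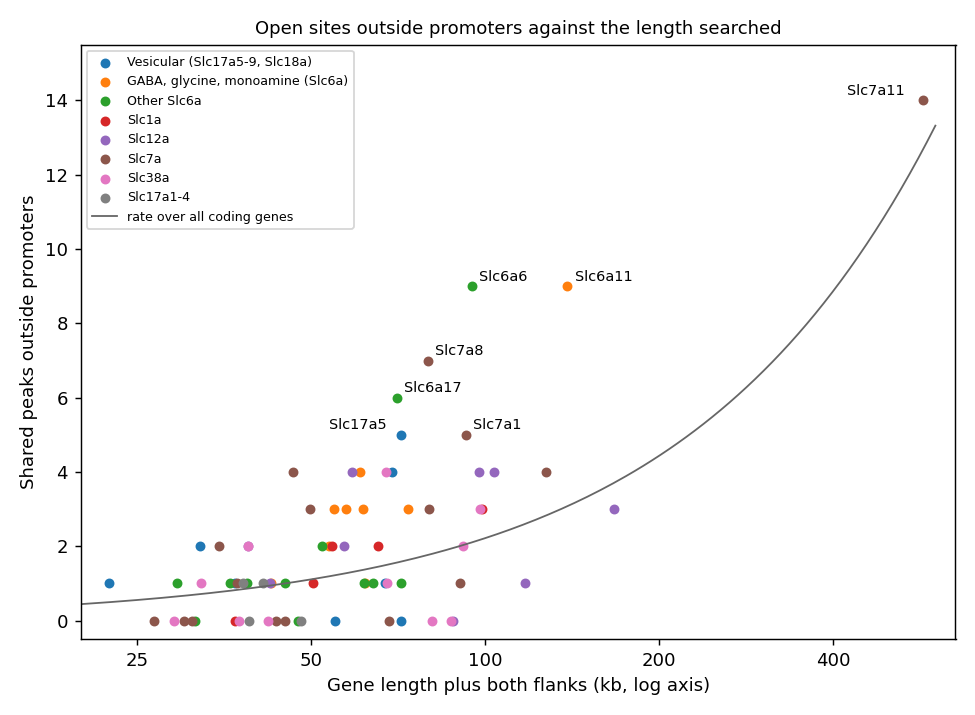
Number of shared peaks outside promoters at each of the 74 transporter genes (vertical axis) against gene length plus both flanks (kb, log axis), coloured by family or role; the grey curve is the rate over all coding genes, 2.22 per 100 kb. Slc6a6, Slc6a11, Slc7a8 and Slc6a17 lie above the curve, and Slc7a11, the longest gene, lies near it.

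All 9 plasma membrane transmitter transporters had a shared site, with a median of 3.00 and 4.79 per 100 kb, the highest rate of the role groups, while their median promoter value was the lowest. Slc6a11 held 9 shared sites, 7 of them in introns at 0.509 to 0.919 in replicate 1 and 0.522 to 1.07 in replicate 2, with the highest just past its 3′ end at 1.76 and 2.35. Slc6a9 held 4. Slc6a13, with no promoter peak, held 3 shared sites, of which the one at 1.92 and 2.11 lies between it and Slc6a12 and was counted for both. Slc6a2 held 3 at 0.537 to 1.18 in replicate 1 and 0.611 to 1.06 in replicate 2, again with no promoter peak. Slc6a5 held an intron site at 2.39 and 2.66, higher than its promoter in each replicate.

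In the remaining families Slc7a11 held the most shared sites, 14 over a gene of 551.1 kb, a rate of 2.45 per 100 kb. Slc6a6 held 9 at a rate of 9.47 per 100 kb, the highest of the named genes. Slc7a8 had 7 at 8.78, Slc7a5 had 4 at 8.59 and Slc6a17 had 6 at 8.51. The Slc7a8 count includes overlapping peaks of replicate 1 that met the same peak of replicate 2. Its rate is therefore not ranked against those of Slc7a5 and Slc6a17. Slc17a5 and Slc7a1 held 5 each. Slc12a5 held 4, all within 10.2 kb of its first start, the nearest at 1.69 and 1.64. Those at 8.78 and 10.2 kb lay past its second coding promoter at 7.18 kb and nearer to that one. The highest site at any transporter gene lay 10.1 kb upstream of Slc38a2, its inner part just within the searched flank, at 5.23 and 6.86, and 0.165% of all shared sites were higher. After it and the Slc17a7 site came the Slc6a17 intron site, 26.3 kb from the start, at 4.07 and 4.35, and a site downstream of Slc38a3 at 3.10 and 4.61. The Slc7a11 intron site had 2.63 and 2.60. For each of these 5 genes the site was higher than the gene's own promoter peak in both replicates. None of the 8 highest sites had a RefSeq transcript start within 1500 bp of its centre.

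**Figure D4:**
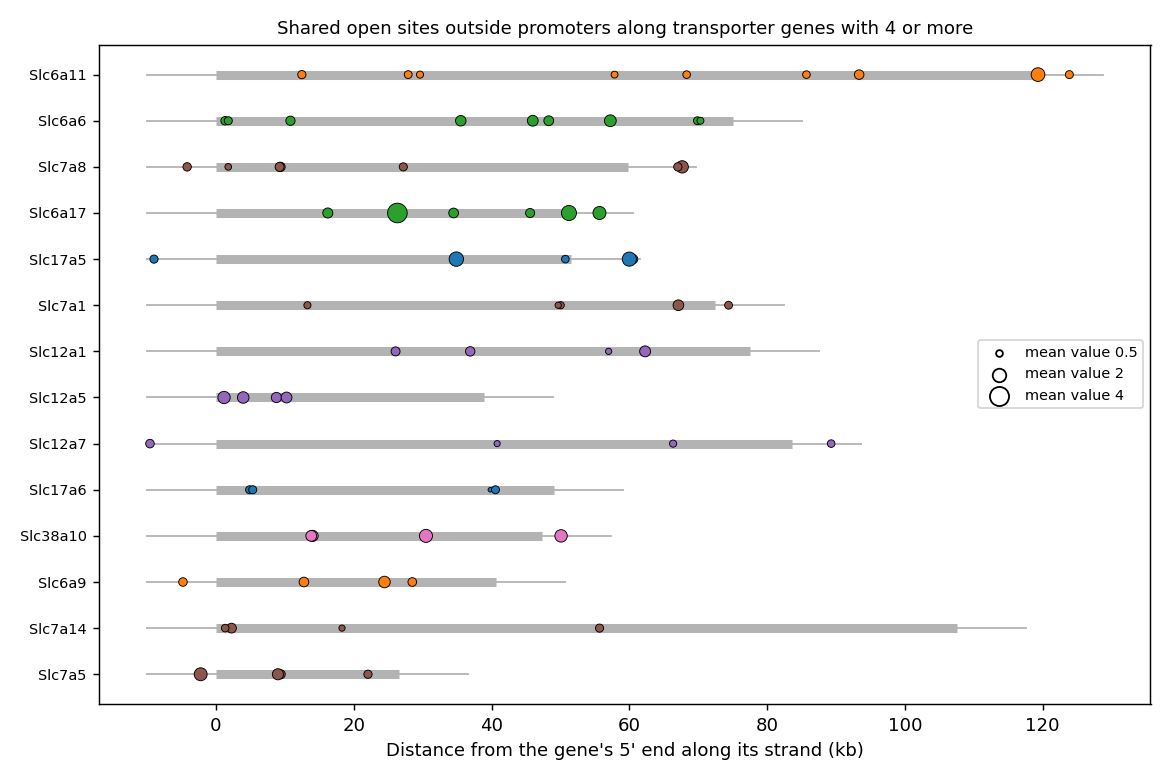
Positions of the shared peaks outside promoters along the 14 transporter genes with 4 or more of them, in kb from the gene's 5′ end along its strand; thick grey bars are gene bodies, thin lines the 10 kb flanks, and circle area follows the mean value. Slc7a11 is left out for its length of 551.1 kb. The Slc6a17 intron site is the largest circle, and the 4 sites of Slc12a5 lie within 10.2 kb of its first start, to both sides of its second coding promoter.

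Footprints were found in nearly every open promoter. The highest promoter peak of the 46 transporter genes held a median of 5 footprints in replicate 1 and 4 in replicate 2, against 5 in each replicate over all genes. Of the 235 footprints in replicate 1, 94 had a footprint of replicate 2 over at least 50% of their length. Outside promoters, the shared sites held 336 footprints in replicate 1, of which 138 recurred, and 6 of the 151 sites held none in either replicate. Neither recurrence nor sites without a footprint were counted over all genes or sites, so these counts describe the transporters only. The Slc6a17 intron site had 4 footprints in each replicate and all 4 of replicate 1 recurred.

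Motif letters were searched on both strands within 100 bp of peak centres, and a match is a description of sequence, not of a bound factor. A match counted as touched where a footprint covered any of its bases, so a touched match can lie mostly outside footprints. In promoter windows touched matches were counted for the transporters only, so no share over all genes stands beside them. In promoters the E-box CAGATGG stood in 4 of 46 transporter windows (Slc17a7, Slc38a9, Slc6a15 and Slc7a8), or 8.70%, against 2.66% of all genes with a promoter peak in both, and the AP-1 letters TGANTCA stood in 3, or 6.52%, against 2.36%. Footprints of both replicates touched the E-box of Slc38a9 and the AP-1 match of Slc38a7. In the Slc38a9 E-box only the A nearest its start and the last G lay in footprints of both. The Sp letters GGGGCGGGG stood in 8, or 17.4%, against 15.1%, with footprints of both replicates touching the match in 6, among them Slc17a5, Slc18a1, Slc38a2 and Slc7a5. The Nrf1 letters GCATGCGC stood in Slc18a1 alone, 2.17% against 4.83%. The Egr letters GCGTGGGCG, which can overlap the Sp letters, stood in Slc7a6, 2.17% against 1.01%, also touched by footprints of both replicates. The antioxidant response letters TGACNNNGC, which can overlap AP-1 matches, stood in 7, or 15.2%, against 10.7%, with footprints of both replicates touching those of Slc7a1 and Slc7a6, and in Slc7a6 the match overlapped the Egr match. Of the parts of the RE1 element bound by Rest, a repressor of neuronal genes, the left letters TTCAGCACC stood in none, against 0.461% of all promoters, and the right letters GGACAGCNC in Slc17a5 alone, 2.17% against 2.03%. The CRE letters TGACGTCA stood in none of the 46, against 3.11% of all genes, which says only that these letters were not in these windows.

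The composite element TGATGNAAT, bound by Cebp and Atf4 dimers in the amino acid response, stood in none of these 46 windows, and in that of Slc38a2 alone when 200 bp to each side were searched, or 2.17% against 0.447% of all genes. The match lies at chr15:96699177-96699185, 545 bp inside the gene, under the promoter peak. A footprint touched it in each replicate, but only its last base lay in footprints of both. Slc38a2 is known to be induced by amino acid shortage through such an element within the gene in human cells.

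Among sites outside promoters, the longer CTCF form stood in 40 of the 151 transporter sites, or 26.5%, against 18.3% of all 47386 shared sites. It was chosen after the sequences of the highest sites were seen. It stood in 9 of the 20 highest transporter sites and in 31 of the other 131, and over all shared sites in 41.2% of the highest 10% by replicate 1 value and 15.7% of the rest. Of its 42 matches at the transporters 29, or 69.0%, touched footprints of both replicates, against 65.9% of the 9099 matches over all sites. The shorter core CCANNAGGG, which lies within some of the longer matches, stood in 9.93% of transporter sites and 8.43% of all sites. In promoter windows the longer form stood in 6.52% of the 46 transporters and 7.90% of all genes. The E-box CAGATGG stood in 14.6% of transporter sites and 13.4% of all, and 2 of its 23 matches (8.70%, against 20.7% over all sites) touched footprints of both replicates, one of them in the Slc6a17 intron shown above. The Rfx letters GTTGCCATG stood in 1 transporter site, or 0.662%, against 1.02% of all sites. That site is the Slc12a5 intron shown above, at 1.48 and 1.45, and a footprint touched the letters in each replicate, as for 33.9% of the matches over all sites. AP-1 letters stood in 7.28% of transporter sites and 7.29% of all sites.

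Of 31 other genes of transmitter and amino acid handling, 26 had a promoter peak in both replicates and 5 had none. Over all protein-coding genes the shares were 64.3% and 32.1%. The 31 genes were picked by hand. Slc32a1, the vesicular GABA transporter, and Wnk3, a kinase that acts on the Slc12a cotransporters, were among the 5. The highest of the 26 were Oxsr1, the kinase that phosphorylates Slc12a cotransporters, at 6.92 and 8.10, and Atf4, the transcription factor of the amino acid response, at 6.16 and 7.69. Slc3a2, the heavy chain that pairs with Slc7a5, had 4.37 and 4.46. The GABA-synthesising enzymes Gad1 and Gad2 had 1.89 and 2.43 for Gad1 and 0.424 and 0.685 for Gad2. The left-out glutamate transporters had 1.83 and 2.33 for Slc1a2, and 0.948 and 1.17 for Slc1a3.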

How the data were processed

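DNase-seq was measured in 2 biological replicates of 1 group. Per the deposited file descriptions, the authors called peaks and footprints per library on mm10 alignments; no source used here names the aligner or caller. The authors' signal values per peak have no stated unit. The deposited p-value columns hold false discovery rates, 0.01 for every footprint and under 0.05 for listed stretches. The longer peak list was used. Some genes are counted in totals but not reported by name here. No read depth is given, so no interval was computed.

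Genes came from GENCODE M21 and sequence from GRCm38.p6 (RefSeq). Peaks were joined to start sites and gene bodies in Python 3.11.15 with pandas 2.3.3, and sequence read with pyfaidx 0.9.0.4. The counting steps were tested on simulated data. The design gives no test between conditions, so results are values, counts and shares beside all coding genes. Members, lists, motifs and the named genes (highest promoters, most sites, peak in 1 replicate, chosen roles) were chosen with earlier results of these data known. Separate promoters, basic starts, motifs outside promoters and the longer CTCF form were added after seeing the data.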

Additional observations from a re-analysis of the deposited data

How the results depend on the processing

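The count of transporter genes open at the promoter in both replicates was 46 and ranged from 37 (the authors' shorter, stricter peak list) to 47 over other windows, list lengths and start site sets, and from 47 to 49 with either replicate alone. With basic or coding starts it was 43. The count with a shared site outside promoters was 55 and ranged from 38 (upper part of each list) to 71 (50 kb flanks). The median promoter value of 1.63 became 1.89 in the shorter list and 2.48 when divided by the library median, which is another unit. It was 1.33 to 1.70 without 1 replicate. The median of 1.00 shared site became 4 with 50 kb flanks and 2.00 without either replicate, where all peaks of the other count. Over all coding genes 66.4% had a promoter peak in replicate 1 and 65.8% in replicate 2. The other counts and medians given so far in this paragraph were made for the transporters only. Whether their promoter share stays near that of all genes under those settings was therefore not tested. The same holds for their higher share with a site outside promoters. Within 200 bp of the centre, 8 of 12 motif counts stayed within 1.5 times. AP-1 then stood in 7 promoters, or 15.2%, against 4.76% of all genes with a promoter peak in both. The cause was not tested. No paired analysis was possible because there was 1 group. Both replicates may be technical and 2 libraries give no error for a gene's difference. The unknown depth and unit limit comparison between replicates.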

Other observations

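Of the 74 transporter genes 21 lay within 100 kb of another one, in 8 runs of neighbours. Runs were not counted over all coding genes, so the counts below describe these genes only. In 4 runs every gene had a promoter peak in both replicates, among them Slc38a1 with Slc38a2, Slc7a6 with Slc7a6os, and Slc17a7 with Slc6a16 and Slc6a21. In 3 runs no gene had one: Slc17a1 to Slc17a4 over 108.0 kb of chromosome 13, Slc6a13 with Slc6a12, and Slc6a20b with Slc6a20a. The remaining run, 280.0 kb on chromosome 13, held Slc6a3 with a peak in 1 replicate, Slc6a18 with none, and Slc6a19 and Slc12a7 with peaks in both. Neighbours share flanks, and 4 of the 151 sites outside promoters were counted for more than 1 gene.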
